A study of Mus musculus with 28 samples.

Results

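The genes described here are 10 members of the mouse piRNA pathway: Piwil2, Piwil4, Gtsf1, Mael, Asz1, Mov10l1, Tdrd9, Tdrd12, Tdrd1 and Tdrd5. They were taken by name as the rows that carry these symbols, and each was found among the 53564 gene symbols of the table. RNA was sequenced from cells of strain C57BL6, and 16 libraries in 8 groups of 2 were compared. LT cells came from wild-type embryonic stem cells with long telomeres. ST cells came from Terc-knockout stem cells of generation 4 (G4), which have short telomeres and lack the RNA template of telomerase. RT cells came from stem cells in which Terc had been rescued. In each line, stem cells became epiblast-like cells over 2 days, and 1 further day with BMP4, SCF, EGF and LIF gave day-1 embryoid bodies, called 1dEB. After 4 days of this induction, cells resembling primordial germ cells (PGCs, from which eggs and sperm descend) were aggregated with GFP-marked somatic cells from female E12.5 gonads. They were kept for 1 day with 3 µM retinoic acid, and the GFP-negative cells sorted from these aggregates are called 1dMeioLC, for meiocyte-like cells. PGCs sorted from gonads of E10.5 embryos with antibodies to integrin β3 and SSEA1 were sequenced without culture (E10.5PGC) or following the same aggregate culture (PGC-1dMeioLC). The labels name 1 kind of stem cell per line, do not say how Terc was restored or how many clones or animals were used, and do not say that both libraries of a group are separate cultures. The p-values therefore measure only the spread between these libraries, which may be technical.

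piRNAs are small RNAs of the germ line that are bound by PIWI proteins and that silence transposons, both by cutting their transcripts and by directing DNA methylation to their promoters. Long precursor transcripts are unwound by helicases, cut and trimmed at the outer membrane of mitochondria, and loaded onto PIWI proteins in germ granules built by Tudor-domain proteins. In the mouse this machinery is used mainly by male germ cells, from the fetal gonad through meiosis, and several of its genes are already transcribed in PGCs of both sexes, many of them under promoters that lose DNA methylation as PGCs develop.

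Promoter letters were taken from RefSeq (build GRCm38.p6), where 9 of the 10 genes had an entry with 13 start sites in all, and Piwil2 had none. The 250 bases before each start were searched on both strands for 4 motifs that are known from germ cell gene promoters. The E-box CACGTG, read by basic helix-loop-helix factors of the MYC, MAX and MGA group, was present before at least 1 start of 4 of the 9 genes (Mael, Mov10l1, Tdrd9 and Tdrd1), and 6.86% of the 27025 genes of the RefSeq table hold it in windows of the same length. GCGGGAA (an E2F-type motif) was found before Tdrd5 alone, and 4.38% of genes hold it. AACNGTT (a MYB-type motif) was found before the second start of Piwil4 alone, and 4.27% of genes hold it. TGACGTCA (the cyclic AMP response element) was found before none of the 9, against 1.77% of genes. No motif match overlapped another kind of motif. A match is a description of the letters and not a measured binding site. The windows of Mael, Mov10l1, Tdrd9 and Tdrd1 are printed because they hold the E-box, in capitals, and those of Gtsf1 and Asz1 because they are described beside Mael and Mov10l1 and hold none of the 4 motifs. Each is read 5′ to 3′ on the gene's own strand and ends at the last base before the gene as annotated in GENCODE M21. For Mael, Mov10l1 and Gtsf1 this lies before the RefSeq start, so fewer than 250 letters are printed. Motif positions and CpG values refer to the full 250 bases before the RefSeq starts.
Mael, chr1:166238748-166238994, minus strand: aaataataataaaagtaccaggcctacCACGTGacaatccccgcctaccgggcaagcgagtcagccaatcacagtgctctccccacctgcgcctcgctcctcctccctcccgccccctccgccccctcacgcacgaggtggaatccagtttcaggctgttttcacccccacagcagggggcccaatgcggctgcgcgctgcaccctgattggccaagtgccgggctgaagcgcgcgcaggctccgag
Mov10l1, chr15:88982744-88982908, plus strand: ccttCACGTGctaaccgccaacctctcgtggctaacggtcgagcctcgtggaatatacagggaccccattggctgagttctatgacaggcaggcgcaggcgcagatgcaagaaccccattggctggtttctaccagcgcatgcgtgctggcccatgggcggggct
Tdrd9, chr12:111971309-111971558, plus strand: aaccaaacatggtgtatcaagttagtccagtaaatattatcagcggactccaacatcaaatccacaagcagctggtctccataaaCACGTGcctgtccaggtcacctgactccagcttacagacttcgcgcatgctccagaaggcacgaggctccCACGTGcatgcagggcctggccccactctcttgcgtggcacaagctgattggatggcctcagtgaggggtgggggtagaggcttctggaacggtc
Tdrd1, first start, chr19:56825959-56826208, plus strand: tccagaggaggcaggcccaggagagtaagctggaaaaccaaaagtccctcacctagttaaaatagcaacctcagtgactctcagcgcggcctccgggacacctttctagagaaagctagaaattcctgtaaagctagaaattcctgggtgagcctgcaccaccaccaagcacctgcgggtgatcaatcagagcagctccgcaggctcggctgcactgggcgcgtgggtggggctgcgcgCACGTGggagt
Gtsf1, chr15:103430471-103430677, minus strand: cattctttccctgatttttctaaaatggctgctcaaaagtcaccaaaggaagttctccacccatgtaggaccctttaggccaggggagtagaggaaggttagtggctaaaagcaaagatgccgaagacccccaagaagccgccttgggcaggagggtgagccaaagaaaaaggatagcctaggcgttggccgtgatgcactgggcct
Asz1, chr6:18109062-18109311, minus strand: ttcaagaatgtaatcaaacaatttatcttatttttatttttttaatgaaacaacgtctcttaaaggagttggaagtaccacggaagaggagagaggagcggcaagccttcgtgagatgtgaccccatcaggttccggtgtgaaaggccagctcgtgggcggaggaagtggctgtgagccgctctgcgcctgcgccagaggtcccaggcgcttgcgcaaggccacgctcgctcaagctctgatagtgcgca
The E-box began 223 bases before the start of Mael, 246 before that of Mov10l1, 165 and 95 before that of Tdrd9, and 11 before the first start of Tdrd1. CpG dinucleotides, the sites of DNA methylation in mammals, occurred at 0.75 of the number expected from base content in the Mael window, 0.748 in that of Mov10l1 and 0.901 in that of Asz1. The Gtsf1 window had 0.38, close to the median of 0.373 over all windows of the table, and the Tdrd5 window had 1.136.

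Values are TPM, in which each library sums to 1000000 and reads are scaled for gene length, so that levels of different genes can be compared within a library. The number of reads behind them is unknown. Terc was listed at 0 in all 4 ST libraries and lay between 0.699 and 5.39 TPM in the 8 LT and RT libraries, as labelled. It was also listed at 0 in both PGC-1dMeioLC libraries, and at 0.945 and 0.974 TPM in E10.5PGC. The summed level of 10 germ cell markers (such as Dppa3, Ddx4 and Dazl) was 964 to 1007 TPM in LT 1dMeioLC, 186 to 194 in ST, 683 to 714 in RT, 1020 to 1039 in PGC-1dMeioLC and 3782 to 3797 in E10.5PGC. Every 1dMeioLC group also held 10 of 10 markers of gonadal somatic cells at 1 TPM or more, summing to 201 to 207 TPM in LT, 247 to 258 in ST, 166 to 167 in RT and 202 to 209 in PGC-1dMeioLC. In E10.5PGC they summed to 24.7 to 26.3 TPM, with Foxl2 listed at 0. Blood and macrophage markers (Ptprc, Adgre1, Csf1r and the hemoglobin gene Hba-a1) summed to 772.3 to 778 TPM in E10.5PGC and 427.5 to 446.1 in PGC-1dMeioLC. Their 1dMeioLC sums were 1099 to 1134 TPM in LT, 1470 to 1474 in ST and 694.5 to 702.8 in RT. Of these 4 markers, 2 reached 1 TPM in E10.5PGC and ST 1dMeioLC, 3 in LT and RT, and 4 in PGC-1dMeioLC. A higher sum thus did not go with more of the markers. Stroma markers summed to 7.27 to 7.34 TPM in E10.5PGC and to between 274.4 and 345.5 in the 1dMeioLC groups. Endothelial markers summed to 32.1 to 32.5 TPM in E10.5PGC, where only 1 of 4 reached 1 TPM. They summed to between 9.19 and 18.4 in the 1dMeioLC groups, where 2 or 3 of 4 did. In these bulk libraries fewer germ cells in a sample and less RNA per germ cell cannot be told apart. Genes of the nuclear genome that code for proteins made up 27.1% of TPM in the lowest library, in RT 1dEB, and 61.2% in the highest, in E10.5PGC, so comparisons between the stages are also given with these genes rescaled to a common sum.

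The summed level of the pathway genes was low in day-1 embryoid bodies of every line and higher in meiocyte-like cells, least so in ST. Not every gene followed the sum. Tdrd5 had a lower mean at 1dMeioLC than at 1dEB in each line, as did Tdrd12 in ST and Tdrd1 in LT. Summed over the 10 genes, the 1dEB level was 16.3 ± 1.83 TPM (SD, n = 2) for LT, 12.7 ± 0.0125 for ST and 14.8 ± 0.751 for RT. At 1dMeioLC the sum was 209.6 ± 0.411 TPM in LT, 42.6 ± 3.42 in ST and 155 ± 5.34 in RT (each SD, n = 2). It was 138.1 ± 2.79 TPM in E10.5PGC and 237.9 ± 1.64 in PGC-1dMeioLC. Gtsf1 and Mael carried most of the sum in meiocyte-like cells. A gene was tested when it reached 1 TPM in at least 2 of the 16 libraries, which 7 of the 10 did. Piwil4, Tdrd9 and Tdrd1 did not, and their values are described on their own.

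**Figure D1:**
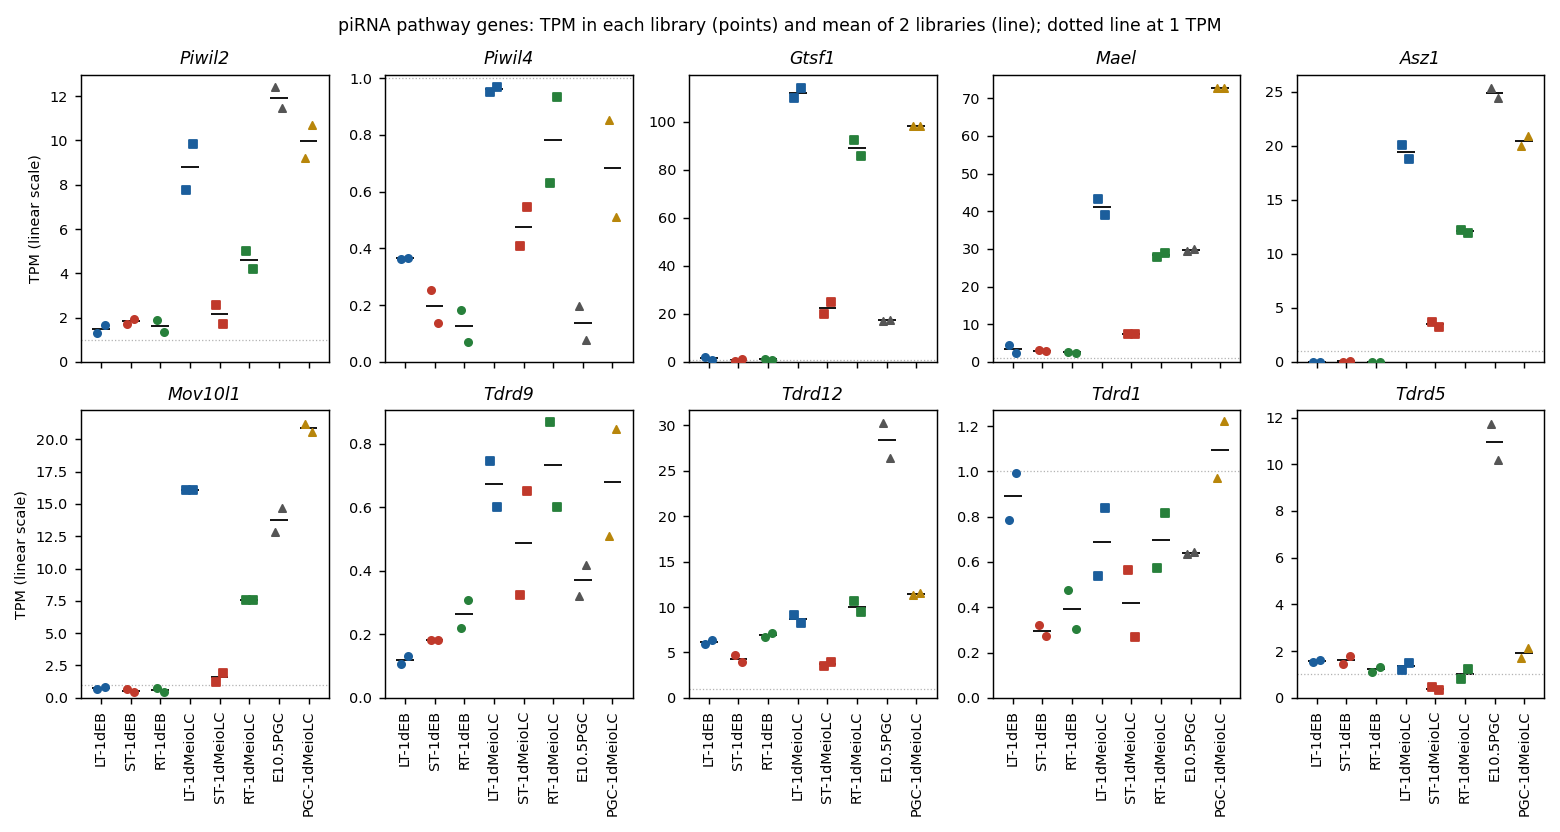
TPM (linear axis, with its own scale for each gene) of the 10 genes in each of the 16 libraries, with groups on the horizontal axis, 1 point per library, a line at the mean of 2 and a dotted line at 1 TPM. For Gtsf1, Mael, Asz1 and Mov10l1 the ST 1dMeioLC libraries lie between the 1dEB libraries and the other 1dMeioLC libraries. Tdrd12, Tdrd5, Piwil2 and Asz1 have their highest mean in E10.5PGC.

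The first comparison was between ST and LT meiocyte-like cells, which differ in Terc and telomere length. Of the 7 genes tested, 7 were lower in ST and none was higher in limma's moderated test (Benjamini-Hochberg adjusted p under 0.05), where 17.7% of the 21935 genes tested were called lower. Their median difference was -2.19 in log2(TPM + 1), and the median over all genes was 0. Since some of the genes passed the filter only through groups where they are high, the count and the median are descriptions. Of the 10 germ cell markers, 5 were also lower in ST, 4 did not pass (Nanos3, Prdm1, Tfap2c and Itgb3) and 1 was higher, with a median of -0.56. Among the lower ones Dazl stood at 24.5%, Ddx4 at 16.8% and Dppa3 at 5.62% of the LT mean, and the higher one was Prdm14, a transcription factor of PGC specification (0.84 ± 0.13, limma adjusted p = 7.0e-04). Their part in the result was not tested.

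Among the PIWI proteins and their partner, Piwil2 (MILI, the PIWI protein of fetal germ cells that cuts transposon transcripts) was at 7.78 and 9.86 TPM in the LT 1dMeioLC libraries, 2.58 and 1.72 in ST, and 5.03 and 4.20 in RT. The 3 lines did not overlap, with ST lowest and RT between. Piwil2 differed by -1.65 ± 0.17 (SE) in log2(TPM + 1) between ST and LT (limma adjusted p = 6.4e-05), and the ST mean was 24.4% of the LT mean. Gtsf1, a zinc finger partner that PIWI proteins need to cut their targets, was the most abundant member, at 109.6 and 113.9 TPM in LT, 19.9 and 24.9 in ST, and 92.4 and 85.7 in RT. Its difference between ST and LT was -2.28 ± 0.27 (adjusted p = 1.5e-04), with 20.1% of the LT level in ST. Piwil4 (MIWI2), the nuclear PIWI protein that directs DNA methylation in fetal male germ cells, stayed below 1 TPM, at 0.952 and 0.968 in LT, 0.408 and 0.545 in ST and 0.629 and 0.934 in RT. With no filter on low values its difference of -0.41 ± 0.14 did not pass (adjusted p = 0.062), and at this level small changes are compressed by the added 1 TPM.

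Among the granule and mitochondrial proteins, Mael (Maelstrom, which acts in transposon silencing and is found in germ granules) was at 43.2 and 39.1 TPM in LT, 7.36 and 7.45 in ST, and 28.0 and 28.8 in RT. No libraries of the 3 lines overlapped. The Mael difference between ST and LT was -2.32 ± 0.18 (adjusted p = 9.8e-06). Asz1 (GASZ), a mitochondrial membrane protein that organizes the granule material between mitochondria, was at 20.0 and 18.8 TPM in LT, 3.73 and 3.22 in ST, and 12.3 and 11.9 in RT. It differed by -2.19 ± 0.09 between ST and LT (adjusted p = 2.5e-07). Both genes kept about the same share of the LT mean in ST, 18.0% for Mael and 17.9% for Asz1.

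Among the helicases, Mov10l1, which binds piRNA precursors and feeds them into cutting, fell furthest of the 7 genes between LT and ST. Its libraries stood at 16.04 and 16.05 TPM in LT, 1.26 and 1.89 in ST, and 7.54 and 7.57 in RT, again with no overlap. The difference between ST and LT was -2.74 ± 0.14 (adjusted p = 9.7e-07), and the ST mean was 9.83% of the LT mean. Tdrd12, which joins Tudor domains to a helicase domain, was at 9.13 and 8.26 TPM in LT, 3.55 and 3.99 in ST, and 10.7 and 9.41 in RT. It kept the largest share of the LT mean in ST among the tested genes, 43.4%, with a difference of -1.02 ± 0.10 (adjusted p = 6.0e-05). Both RT libraries of Tdrd12 lay above both LT libraries, unlike the other tested members. Tdrd9, a helicase that works with MIWI2, was at 0.745 and 0.602 TPM in LT, 0.325 and 0.650 in ST, and 0.866 and 0.601 in RT. The lines overlapped for Tdrd9, and with no filter its difference of -0.18 ± 0.14 between ST and LT did not pass (adjusted p = 0.53).

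Among the Tudor-domain scaffolds, which hold PIWI proteins in granules through their methylated arginines, Tdrd5 was low, at 1.21 and 1.5 TPM in LT, 0.444 and 0.338 in ST, and 0.827 and 1.24 in RT. ST lay below the other lines, and LT and RT overlapped. The Tdrd5 difference between ST and LT was -0.76 ± 0.14 (adjusted p = 0.0026), and at such a level log2(TPM + 1) understates the change, with the ST mean at 28.9% of the LT mean. Tdrd1, a partner of MILI, was at 0.540 and 0.838 TPM in LT, 0.566 and 0.270 in ST, and 0.575 and 0.815 in RT, so all 3 lines overlapped (difference without the filter -0.25 ± 0.16, adjusted p = 0.34).

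Rescue of Terc was examined by comparing RT with ST meiocyte-like cells and then RT with LT. These comparisons share the RT libraries, and each also shares libraries with the comparison of ST and LT. Against ST, 7 of the 7 tested genes were higher in RT, where 13.1% of all genes were called higher. Gtsf1 differed by 1.95 ± 0.27 (adjusted p = 4.3e-04), Mael by 1.81 ± 0.18 (5.5e-05), Mov10l1 by 1.74 ± 0.14 (1.7e-05) and Asz1 by 1.55 ± 0.09 (2.9e-06). The smaller differences were those of Tdrd12 at 1.21 ± 0.10 (adjusted p = 2.5e-05), Piwil2 at 0.84 ± 0.17 (0.0037) and Tdrd5 at 0.54 ± 0.14 (0.016). The Tdrd5 call was lost without ST replicate 2 (adjusted p = 0.076), without RT replicate 2 (0.11) and with quantile normalization (0.40, adjusted p = 0.070). Of the 10 germ cell markers, 6 were higher in RT than in ST, 2 were lower and 2 did not pass. Among the higher ones Dazl stood at 71.6% and Ddx4 at 56.5% of the LT mean in RT, and the lower ones were Prdm14 (-1.09 ± 0.13, limma adjusted p = 1.7e-04) and Prdm1 (-0.63 ± 0.11, 0.0021), both transcription factors of PGC specification. The part of the markers was not tested.

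Return to the LT level differed from gene to gene. Against LT, 3 of the 7 tested genes were lower in RT and none was higher, where 12.4% of all genes were called lower. These were Mov10l1 at -0.995 ± 0.14 (adjusted p = 0.0012), Piwil2 at -0.80 ± 0.17 (0.0097) and Asz1 at -0.64 ± 0.09 (0.0010). The RT means of these genes were 47.1%, 52.3% and 62.3% of LT. The Piwil2 call was lost without LT replicate 2 (adjusted p = 0.084) or without RT replicate 2 (0.066), and the Asz1 call was lost with 0.1 TPM added in place of 1 (-0.68, adjusted p = 0.091). Mael stood at 69.0% of LT (-0.52 ± 0.18, adjusted p = 0.069), Tdrd5 at 76.2% (-0.22 ± 0.14, 0.34), Gtsf1 at 79.7% (-0.32 ± 0.27, 0.46) and Tdrd12 at 116% (0.19 ± 0.10, 0.25), and none of these differences passed the test. A p above the threshold does not show that these levels were equal.

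**Figure D2:**
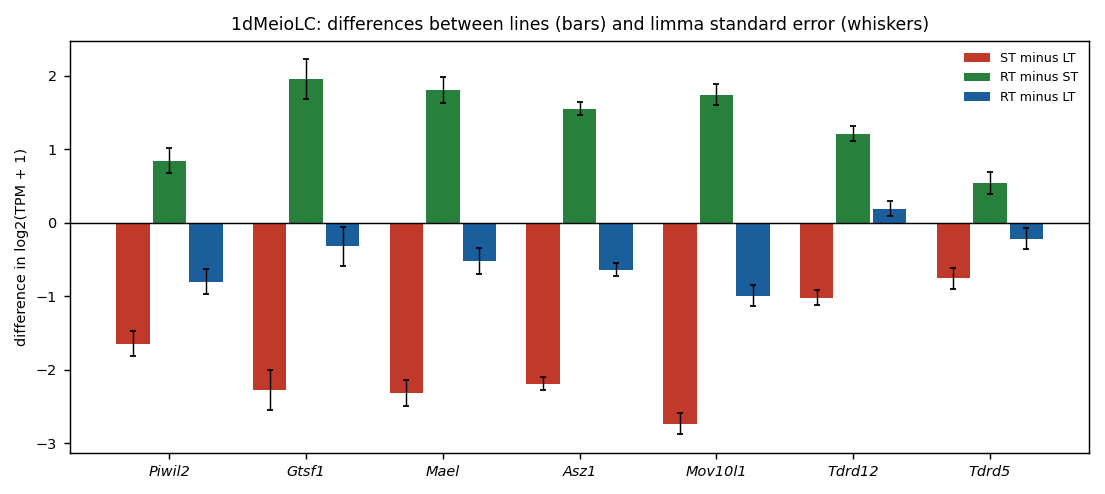
Differences in log2(TPM + 1) between lines at 1dMeioLC for the 7 tested genes, with ST minus LT in red, RT minus ST in green and RT minus LT in blue, and whiskers of 1 limma standard error (2 libraries a group). Every red bar lies below 0 and every green bar above it, and the blue bars run from -0.995 for Mov10l1 to 0.19 for Tdrd12.

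Some members kept about the same ratio to the germ cell RNA helicase Ddx4 (mouse Vasa) in ST as in LT, and others did not. Ddx4 was at 37.4 and 32.9 TPM in LT 1dMeioLC, 5.98 and 5.84 in ST, 17.9 and 21.8 in RT, and 44.7 and 44.9 in PGC-1dMeioLC. The ratio of Mael to Ddx4 in the same library was 1.17 ± 0.025 in LT, 1.25 ± 0.032 in ST, 1.44 ± 0.169 in RT and 1.62 ± 0.00781 in PGC-1dMeioLC (SD, n = 2). For Asz1 the ratio was 0.554 ± 0.0249 in LT and 0.587 ± 0.0518 in ST. Both genes thus fell by about as much as Ddx4 in ST. Mov10l1 had a ratio to Ddx4 of 0.459 ± 0.0419 in LT and 0.268 ± 0.0802 in ST, with both ST libraries below both LT libraries. Tdrd12 went the other way, from 0.248 ± 0.00525 in LT to 0.638 ± 0.0637 in ST. For Gtsf1 the ratios to Ddx4 overlapped between LT (2.93 and 3.47) and ST (3.33 and 4.26). Those of Piwil2 also overlapped, at 0.208 and 0.3 in LT and 0.431 and 0.295 in ST. Tdrd5, which lay below 1 TPM in ST, had a higher ratio there (0.0742 and 0.0579 against 0.0322 and 0.0457 in LT). Set against Dazl, an RNA-binding protein of germ cells, Mov10l1 again had a lower ratio in ST (0.0186 ± 0.00415 against 0.0466 ± 0.000986 in LT) and Tdrd12 a higher ratio (0.0447 ± 0.000939 against 0.0252 ± 0.00124). Unlike their ratios to Ddx4, those of Mael and Asz1 to Dazl were lower in ST than in LT. They were 0.088 ± 0.0047 against 0.119 ± 0.00585 for Mael and 0.0414 ± 0.0069 against 0.0563 ± 0.00142 for Asz1. Gtsf1 also had a lower ratio to Dazl in ST (0.265 ± 0.0253 against 0.325 ± 0.0157 in LT). For Piwil2 and Tdrd5 the ratios to Dazl overlapped between LT and ST. These ratios are descriptions and show unequal change between genes.

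The change from day-1 embryoid bodies to meiocyte-like cells was compared within each line. In LT, 6 of the 7 tested genes were higher at 1dMeioLC and none was lower, where 40.4% of all genes were called higher and 24% lower. In RT the count was also 6 higher and none lower, with 43.7% of all genes called higher and 4828 of the 21935 genes lower. In ST, 4 were higher and 1 was lower, where 33.3% of all genes were called higher and 29.6% lower. Asz1 and Mov10l1 were below 1 TPM in every 1dEB library and passed the filter only through other groups. The counts over this step are therefore descriptions. With protein-coding genes rescaled, the counts were 5 higher and 1 lower in LT, 4 and 2 in ST, and 4 and 2 in RT. The shares of all genes called higher were then 27.6%, 25.5% and 23.5%. Of the 21935 genes tested, 8214 were called lower in LT, 8229 in ST and 9886 in RT after rescaling. Over the same step 9 of the 10 gonadal somatic markers were higher in LT, 9 in ST and 10 in RT, and their part was not tested. The median over all genes was 0.19 in LT, 0 in ST and 0.30 in RT before rescaling, and -0.17, -0.21 and -0.46 after it.

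Asz1 was listed at 0 in 5 of the 6 1dEB libraries and at 0.0868 TPM in ST replicate 2, so no fold is given for LT and RT, where it reached 18.8 to 20.0 and 11.9 to 12.3 TPM at 1dMeioLC. In ST it reached 3.22 and 3.73 TPM. Gtsf1 stood at 2.24 and 0.647 TPM in LT 1dEB, 0.423 and 1.06 in ST and 1.29 and 0.930 in RT, and rose by 5.61 ± 0.27 in LT (limma adjusted p = 1.8e-08), 3.77 ± 0.27 in ST (5.2e-07) and 5.42 ± 0.27 in RT (1.9e-08). It was the member with the largest rise in each line, outside Asz1. Mov10l1, at 0.411 to 0.817 TPM in the 6 1dEB libraries, rose by 3.30 ± 0.14 in LT (7.4e-09), 0.74 ± 0.14 in ST (8.2e-04) and 2.40 ± 0.14 in RT (7.2e-08). Mael, at 2.35 to 4.61 TPM in 1dEB, rose by 3.27 ± 0.18 in LT (5.0e-08), 1.09 ± 0.18 in ST (2.9e-04) and 3.05 ± 0.18 in RT (6.9e-08). These rises kept their direction and their call with protein-coding genes rescaled.

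Piwil2 changed with the stage in LT and RT, while its ST change did not pass. Its 1dEB libraries were at 1.33 and 1.67 TPM in LT, 1.70 and 1.95 in ST, and 1.88 and 1.36 in RT. It rose by 1.97 ± 0.17 in LT (limma adjusted p = 2.0e-06) and 1.10 ± 0.17 in RT (1.7e-04), and the ST difference was 0.14 ± 0.17 (0.49). The RT rise of Piwil2 did not pass with rescaled protein-coding genes (0.35, adjusted p = 0.15). For Tdrd12 the direction depended on the scaling. As deposited, it rose by 0.44 ± 0.10 in LT (0.0036) and 0.48 ± 0.10 in RT (0.0019), whereas after rescaling the differences were -0.14 (0.28) and -0.55 (0.0010). Tdrd5 fell in ST, from 1.44 and 1.81 TPM at 1dEB to 0.444 and 0.338, by 0.91 on the log2 scale (SE 0.14, adjusted p = 2.5e-04). In LT and RT its differences of -0.13 and -0.14 did not pass as deposited (0.45 and 0.43), and rescaled they were -0.65 (0.0076) and -0.997 (4.8e-04).

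With no filter on low values, Piwil4 was higher at 1dMeioLC than at 1dEB in LT (0.52 ± 0.14, adjusted p = 0.011) and RT (0.66 ± 0.14, 0.0026), and so was Tdrd9 (0.58 ± 0.14 in LT, 0.0082, and 0.45 ± 0.14 in RT, 0.025). Piwil4 had 0.362 and 0.367 TPM in LT 1dEB, 0.254 and 0.137 in ST and 0.184 and 0.0686 in RT. Tdrd9 had 0.108 and 0.133 TPM in LT 1dEB, 0.181 in both ST libraries and 0.218 and 0.307 in RT. Both remained below 1 TPM in every library of the series examined here, while Tdrd1 reached 1.22 TPM in 1 PGC-1dMeioLC library.

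**Figure D3:**
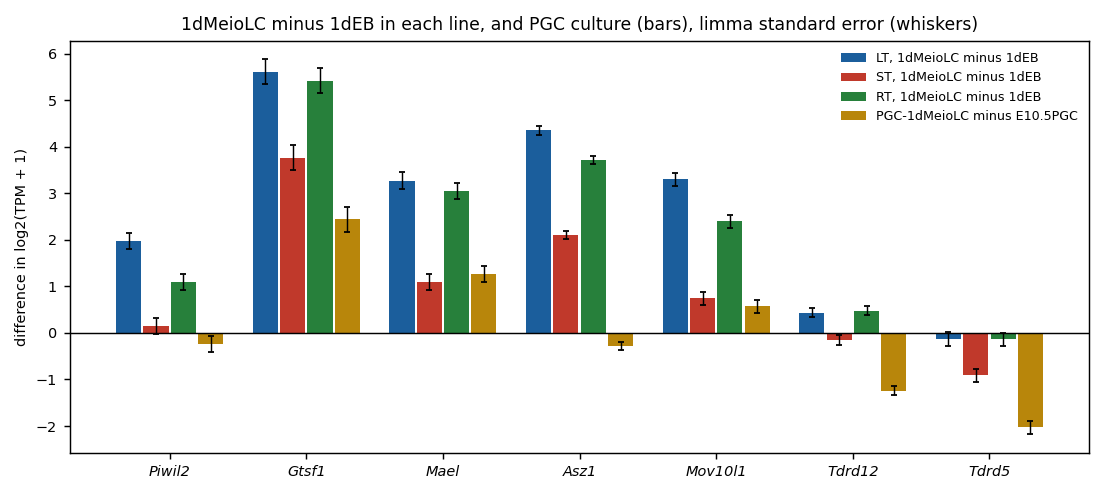
Differences in log2(TPM + 1) between 1dMeioLC and 1dEB in LT, ST and RT for the 7 tested genes, as deposited, with the change from E10.5PGC to PGC-1dMeioLC beside them and whiskers of 1 limma standard error (2 libraries a group). Among the 3 lines the ST bar is the lowest for each gene, and the Asz1 bars of LT and RT are set against libraries listed at 0 and are not folds.

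At day 1 of induction few of these genes passed the test between lines. In 1dEB, 1 of the 7 tested genes was lower in ST than in LT and none was higher, where 11.6% of all genes were called lower and 26.7% higher. This was Tdrd12, at 5.97 and 6.34 TPM in LT, 4.69 and 3.96 in ST, and 6.67 and 7.16 in RT, with a difference of -0.43 ± 0.10 (limma adjusted p = 0.0074). Without ST replicate 2 its difference of -0.33 did not pass (0.063). RT was higher than ST for Tdrd12 alone (0.57 ± 0.10, adjusted p = 9.1e-04), where 5.14% of all genes were called higher. None of the 7 was lower, where 9778 of the 21935 genes were called lower. After rescaling Tdrd12 was again the only one called (1.25, adjusted p = 1.4e-05), where 4084 of the 21935 genes were called higher. Between RT and LT none of the 7 passed the test, where 41.6% of all genes were called in either direction. Asz1 was listed at 0 in every LT and RT 1dEB library and could not be called. Mov10l1 was below 1 TPM in every 1dEB library, where the added 1 TPM compresses differences. Rescaling made RT higher than LT for Tdrd12 (0.60, adjusted p = 0.0015). Without LT replicate 2, whose Gtsf1 and Mael values were the lower ones of their pair (0.647 and 2.39 TPM against 2.24 and 4.61), Gtsf1 and Mael became lower in both ST (-0.92, 0.0074, and -0.51, 0.0022) and RT (-0.62, 0.040, and -0.66, 4.8e-04) than in LT. With no filter, Tdrd1 was lower in ST 1dEB than in LT 1dEB (0.324 and 0.271 against 0.788 and 0.991 TPM, -0.54 ± 0.16, adjusted p = 0.031). Markers of stroma such as Col1a1 and Lum summed to 244 to 255 TPM in ST 1dEB, 60.8 to 69.1 in RT and 10.9 to 11.0 in LT, and their part was not tested.

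The effect of ST against LT was lower at 1dMeioLC than at 1dEB for 7 of the 7 tested genes by the test of the difference between stages, where 26.4% of all genes were called so. After rescaling it was 5 of 7, where 18.8% of all genes were called. Because Asz1 and Mov10l1 passed the filter only through groups other than 1dEB, the counts of this paragraph are descriptions. Mov10l1 differed most between the stages, by -2.56 ± 0.20 (limma adjusted p = 5.7e-06), followed by Asz1 at -2.25 ± 0.12 (5.4e-07) and Mael at -2.18 ± 0.25 (8.3e-05). The effect of RT against ST was higher at 1dMeioLC than at 1dEB for 7 of the 7, where 34.6% of all genes were called higher. Rescaled, Asz1 (1.68, adjusted p = 5.0e-05), Mael (1.37, 0.0057) and Mov10l1 (1.30, 0.0056) remained higher, where 2735 of the 21935 genes were called higher, and the other 4 calls were lost.

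In PGCs taken from embryos the pathway was already transcribed, with another balance of members. Against LT 1dEB, 7 of the 7 tested genes were higher in E10.5PGC, where 27.2% of all genes were called higher. Asz1 was listed at 0 in LT 1dEB, and Mov10l1 was below 1 TPM there. Both genes passed the filter only through groups where they are higher, so the count is a description. Tdrd12 was at 30.3 and 26.4 TPM in E10.5PGC, Asz1 at 25.3 and 24.5, Mael at 29.4 and 30.1, and Mov10l1 at 12.8 and 14.7. Piwil2 was at 12.4 and 11.5 TPM, Gtsf1 at 16.9 and 17.6 and Tdrd5 at 11.7 and 10.2. For Tdrd12, Tdrd5, Piwil2 and Asz1 this was the highest mean of the 8 groups. The Tdrd5 mean of 11.0 TPM stood above a next highest mean of 1.94. Piwil4 was at 0.198 and 0.0765 TPM and Tdrd9 at 0.320 and 0.418.

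A day in the aggregate culture moved the members in both directions. Comparing PGC-1dMeioLC with E10.5PGC, 3 of the 7 tested genes were higher and 3 lower, where 34.7% of all genes were called higher and 18.9% lower. Gtsf1 rose to 98.3 and 98.0 TPM, by 2.44 ± 0.27 (limma adjusted p = 2.1e-05). Mael rose to 72.8 and 72.6 TPM, by 1.26 ± 0.18 (1.3e-04), and Mov10l1 to 21.2 and 20.6 TPM, by 0.57 ± 0.14 (0.0053). The Mov10l1 call was lost with 0.1 TPM added (0.60, adjusted p = 0.067). Tdrd5 fell to 1.72 and 2.15 TPM, by 2.03 on the log2 scale (SE 0.14, 8.3e-07), and Tdrd12 fell to 11.3 and 11.6 TPM, by 1.24 (SE 0.10, 2.8e-06). Asz1, at 20.0 and 20.9 TPM, differed by -0.27 ± 0.09 (0.022), a call that was lost after rescaling (-0.11, 0.47), with 0.1 TPM added (-0.28, 0.37), and without E10.5PGC replicate 1 (-0.25, 0.11) or 2 (-0.30, 0.061) or PGC-1dMeioLC replicate 1 (-0.24, 0.11). Piwil2, at 9.21 and 10.7 TPM, differed by -0.24 ± 0.17, which did not pass (0.27). Piwil4 rose without the filter, to 0.853 and 0.511 TPM (0.56 ± 0.14, 0.0095). Over the same step the germ cell marker sum was lower and that of the gonadal somatic markers higher. Of the 10 germ cell markers, 8 were lower and 2 were higher, with a median of -1.44, and the higher ones were Dazl (0.68 ± 0.09, limma adjusted p = 7.6e-05) and Ddx4 (0.57 ± 0.19, 0.027). The part of these markers was not tested.

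Meiocyte-like cells from stem cells were then compared with those from embryonic PGCs, and these comparisons share the PGC-1dMeioLC libraries. For LT, 2 of the 7 tested genes were lower and none was higher, where 8.25% of all genes were called lower. Mael, at 39.1 to 43.2 against 72.6 to 72.8 TPM, differed by -0.81 ± 0.18 (limma adjusted p = 0.0095), and without LT replicate 2 by -0.74 (0.071). Tdrd12 differed by -0.36 ± 0.10 (0.033), and leaving out any of the 4 libraries gave an adjusted p of 0.058 to 0.19. For RT, 5 were lower, where 17% of all genes were called lower, and these were Mov10l1 (-1.36 ± 0.14, 5.7e-05), Mael (-1.33 ± 0.18, 3.2e-04), Piwil2 (-0.97 ± 0.17, 0.0017), Asz1 (-0.71 ± 0.09, 1.8e-04) and Tdrd5 (-0.53 ± 0.14, 0.018). The Tdrd5 call was lost without RT replicate 1 (-0.39, 0.12) or PGC-1dMeioLC replicate 2 (-0.43, 0.11). For ST, 7 of the 7 were lower, where 18.8% of all genes were called lower. Mael differed by -3.13 ± 0.18 (7.0e-07) and Mov10l1 by -3.10 ± 0.14 (1.6e-07). Tdrd5 differed least in log2(TPM + 1), by -1.07 ± 0.14 (2.2e-04). Its libraries were at 0.444 and 0.338 TPM in ST against 1.72 and 2.15, where the added 1 TPM understates the change, so this rank holds for that scale only. Gtsf1 did not pass the test in LT (0.19 ± 0.27, 0.70) or RT (-0.14 ± 0.27, 0.77).

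With the 8 groups ordered by mean level, differences between neighbours often did not pass the test, which does not show equal levels. For Gtsf1 the order was LT 1dMeioLC, PGC-1dMeioLC and RT 1dMeioLC, with no difference that passed between neighbours, and then ST 1dMeioLC (22.4 TPM). The difference of ST 1dMeioLC from E10.5PGC (17.3 TPM) did not pass (limma adjusted p = 0.30). For Mael, PGC-1dMeioLC stood above LT 1dMeioLC, while the differences between neighbours among LT 1dMeioLC, E10.5PGC and RT 1dMeioLC did not pass (0.051 and 0.83). For Piwil2 the order was E10.5PGC, PGC-1dMeioLC and LT 1dMeioLC, with no difference that passed between neighbours, then RT and then ST 1dMeioLC. The Piwil2 difference between ST 1dMeioLC and ST 1dEB did not pass (0.49). Mov10l1 and Asz1 had ST 1dMeioLC above all 1dEB groups and below all other groups. For Tdrd12 and Tdrd5, ST 1dMeioLC had the lowest mean of the 8 groups, at 3.77 and 0.391 TPM. Its Tdrd12 difference from the next group, ST 1dEB, did not pass (0.21).

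Correlations between the members over the 8 group means of log2(TPM + 1) ran from r = -0.014 for Gtsf1 and Tdrd5 to 0.987 for Mael and Mov10l1. Tdrd12 had 0.862 with Tdrd5, 0.816 with Piwil2, 0.730 with Mov10l1, 0.703 with Asz1, 0.647 with Mael and 0.397 with Gtsf1. Tdrd5 had 0.593 with Piwil2, 0.419 with Mov10l1, 0.395 with Asz1 and 0.306 with Mael. These values describe 8 means that share the contrast of the stages and the composition of the samples. Profiles like the mean of the 10 members were sought among 7809 genes with at least 10 TPM in 1 group mean. Symbols of the Gm and Rik forms were left out, as were the members and the other pathway genes and relatives described below. The closest profile was that of Rhox2c, an X-linked homeobox gene (r = 0.9950). Tex13b (0.9936), Ccnyl1 (0.9934), Rhox8 (0.9917) and Apoc2 (0.9911) followed. Rhox2c was at 11.1 ± 1.63 TPM in LT 1dMeioLC, 1.02 ± 0.721 in ST, 8.98 ± 1.42 in RT and 14.4 ± 0.896 in E10.5PGC. In 1dEB of LT and ST it was listed at 0. The single gene closest to Mael was Stag3, a cohesin subunit of meiosis (0.9952), and the closest to Mov10l1 was again Rhox2c (0.9867).

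A list of 23 other genes of the pathway was set beside the members, of which 17 passed the filter, and Piwil1, Tdrd6, Henmt1, Spocd1, Dnmt3c and Nanos2 did not. Between ST and LT 1dMeioLC, 11 of the 17 were lower and 1 was higher, where 17.7% of all genes were called lower and 17.4% higher. The median of the list was -0.65 in log2(TPM + 1) and that of all genes 0. Ddx4, which is also counted among the germ cell markers, differed by -2.38 ± 0.19 (limma adjusted p = 1.3e-05). Fkbp6, a cochaperone for loading PIWI proteins, was at 101 and 108 TPM in LT, 24.6 and 21.8 in ST and 73.7 and 65.3 in RT, and differed by -2.13 ± 0.14 (3.8e-06). Tdrkh, the mitochondrial Tudor protein that recruits PIWI proteins for trimming of their piRNAs, differed by -1.59 ± 0.12 (7.3e-06). The higher gene was Morc1, which acts in transposon repression in male germ cells, at 6.20 and 6.52 TPM in LT, 21.8 and 20.0 in ST, and 9.66 and 9.12 in RT (1.57 ± 0.15 higher in ST, 3.8e-05). Both ST libraries of Morc1 lay above all LT and RT libraries, near the E10.5PGC level of 25.0 and 18.6 TPM. RT against ST gave 9 higher and 1 lower of the 17, where 13.1% of all genes were called higher and 20.2% lower. Dnmt3l, the cofactor of de novo DNA methylation, was higher in RT than in LT 1dMeioLC (7.41 and 3.76 against 0.950 and 0.763 TPM, 1.77 ± 0.28, 0.0023).

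In LT, 10 of the 17 were higher at 1dMeioLC than at 1dEB and 3 were lower, where 40.4% of all genes were called higher and 24% lower. Fkbp6 rose by 4.17 ± 0.14 (limma adjusted p = 1.0e-09) and Stk31, a Tudor protein of germ cells, by 3.58 ± 0.16 (8.8e-09), and Dnmt3l fell from 41.3 and 38.3 to 0.950 and 0.763 TPM, by 4.46 (SE 0.28, 1.7e-07). Tex15, which is needed for piRNA-directed methylation, rose in PGC culture from 2.89 and 2.91 to 24.7 and 23.2 TPM (2.68 ± 0.11, 2.0e-08). Morc1 fell over the same step to 4.37 and 5.41 TPM, by 1.95 (SE 0.15, 1.3e-06). Of 9 relatives of the members that act outside the pathway, 3 were higher in ST than in LT 1dMeioLC, none was lower and 6 did not pass, where 17.4% of all genes were called higher and 17.7% lower. Mov10, the widely expressed relative of Mov10l1, was at 12.9 and 12.7 TPM in LT, 17.3 and 17.5 in ST and a mean of 11.2 in RT (0.41 ± 0.10 higher in ST than in LT, 0.0085). Ago2, the Argonaute protein of the microRNA and siRNA pathways, was at 5.21 and 5.83 TPM in LT and 7.30 and 8.28 in ST (0.43 ± 0.12, 0.017).

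**Figure D4:**
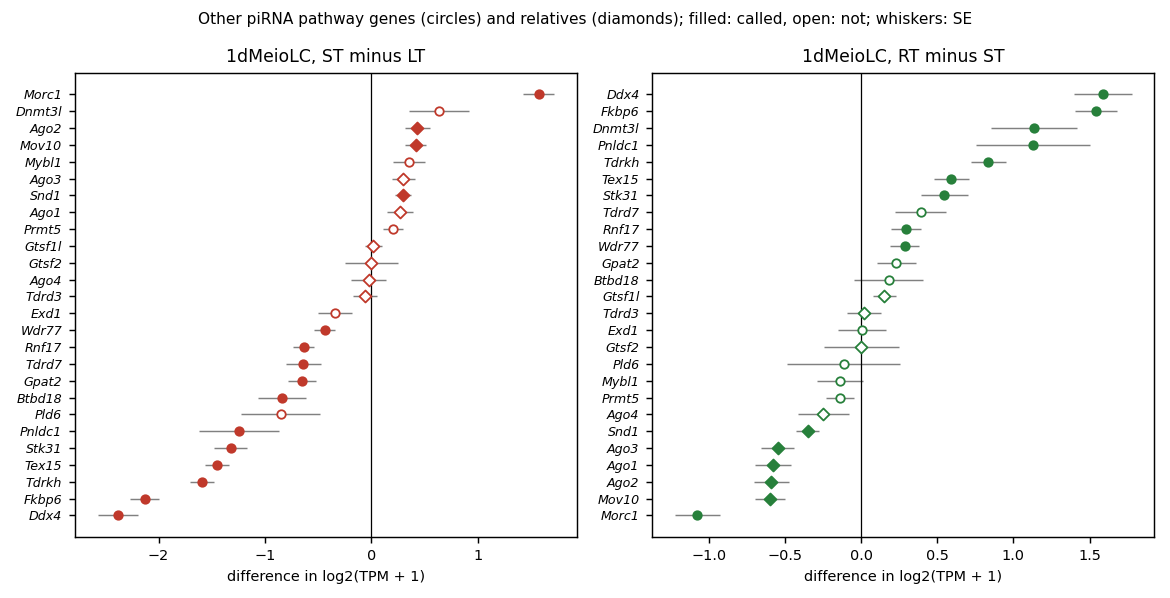
Differences in log2(TPM + 1) between ST and LT (left) and between RT and ST (right) at 1dMeioLC for 17 other pathway genes (circles) and 9 relatives outside the pathway (diamonds), filled where called, with whiskers of 1 limma standard error. Ddx4 and Fkbp6 stand at the low end on the left and the high end on the right, and Morc1 at the opposite ends.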

How the data were processed

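Libraries were made from total RNA with a NEBNext Ultra kit (per the labels' protocols). Tools listed in the submitters' processing notes are HISAT2, Bowtie2, RSEM, DESeq2 and R 3.4.2, with the build mm10. The sources used here do not give the role of each tool. TPM was deposited by the authors for 53564 gene symbols, and depth is unknown. Of 28 columns, 16 match 1 sample title each, and 12 columns (6 names that each occur 2 times) were not used.

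The 21935 genes that reached 1 TPM in 2 or more libraries were fitted as log2(TPM + 1) with limma 3.58.1 in R 4.3.3. The fit had 1 mean for each of 8 groups, a trend on mean expression, 8 residual degrees of freedom, and 2-sided tests with Benjamini-Hochberg adjustment over all genes (threshold 0.05). The test was checked on simulated data. Rescaling set nuclear protein-coding genes (GENCODE M21) to a sum of 1000000. Alternatives added 0.1 TPM, dropped the filter or asked for 4 libraries, rescaled or quantile-normalized the values, blocked on the replicate number, or left out 1 library.

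The members and lists were chosen with earlier results of these data known. The 10 members are named throughout. Other pathway genes are named when among the 4 largest called changes of a comparison, Mov10 and Ago2 among the relatives, and the nearest profiles by Pearson's r among genes with at least 10 TPM in 1 group. Some values of other genes were chosen after they were seen.

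Replicate numbers did not pair the libraries: deviations of libraries with the same number correlated at -0.034 to 0.043 over 28 pairs of groups.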

Additional observations from a re-analysis of the deposited data

Results flagged for a closer look

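The effect of a line differed between day-1 embryoid bodies and meiocyte-like cells for each of the 7 tested members, by limma's test of the difference between the stages, and the causes were not tested. For ST against LT, the effect at 1dMeioLC minus that at 1dEB was -2.56 for Mov10l1, -2.25 for Asz1, -2.18 for Mael, -1.84 for Gtsf1 and -1.83 for Piwil2 in log2(TPM + 1). It was -0.78 for Tdrd5 and -0.59 for Tdrd12. The Gtsf1 difference did not pass after rescaling of protein-coding genes (-1.47, adjusted p = 0.050) or with 0.1 TPM added (-1.56, 0.095). That of Tdrd12 did not pass after rescaling (-0.35, 0.098) or quantile normalization (-0.34, 0.062), and that of Tdrd5 not after quantile normalization (-0.31, 0.29).

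For RT against ST, the corresponding differences were 1.96 for Mael, 1.66 for Mov10l1, 1.65 for Gtsf1, 1.61 for Asz1, 0.96 for Piwil2, 0.78 for Tdrd5 and 0.64 for Tdrd12. After rescaling, those of Gtsf1 (0.94, adjusted p = 0.20), Piwil2 (0.47, 0.25), Tdrd5 (0.47, 0.18) and Tdrd12 (-0.05, 0.82) did not pass. Asz1 was listed at 0 in 5 of the 6 1dEB libraries, so its values rest on the 1dMeioLC libraries. No group has the 4 libraries that a check for single outlying libraries needs.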

How the results depend on the processing

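At 1dMeioLC the counts for ST against LT (7 lower), RT against ST (7 higher) and RT against LT (3 lower) stayed within 1.5 times their values in each alternative run. For ST against LT at 1dEB, where 1 member was called, 2 were called with no filter and 2 after quantile normalization, and 0 to 3 when 1 library was left out (0 without ST replicate 2, 3 without LT replicate 2). For RT against LT at 1dEB, where none was called (limma, with none at an unadjusted p under 0.05), 1 was called after rescaling, 1 after quantile normalization, and 0 to 2 with a library left out (2 without LT replicate 2). LT against PGC-1dMeioLC gave 0 to 1 with a library left out. The stage difference of RT against ST fell from 7 to 3 members on rescaling. Tdrd12 turned its direction over the stages, to -0.14 in LT and -0.55 in RT on rescaling and -0.0209 in RT on quantile normalization, and its stage difference of RT against ST turned to -0.054. The cause was not tested. The replicate block kept all 112 member results on their side of the threshold, for example 7 of 7 lower in ST against LT 1dMeioLC with the block. Leaving out 1 library kept 485 results, weakened 15 and strengthened 4. A group left with 1 library is assumed to vary like the others. Libraries of unknown depth set no limit of detection.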

Other observations

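Day-1 embryoid bodies, in which the summed level of the 10 members was low, differed between lines in other genes of the pathway. Of the 17 tested, 6 were lower and 2 higher in ST than in LT, where 11.6% of all genes were called lower and 26.7% higher. Their median was -0.21 in log2(TPM + 1), and that of all genes 0.10. Gpat2, a mitochondrial acyltransferase of the pathway, was at 3.63 and 3.56 TPM in LT, 0.968 and 1.03 in ST and 4.82 and 4.99 in RT (ST against LT -1.20 ± 0.13, limma adjusted p = 3.0e-05). Its ST libraries lay below those of both other lines. Pld6, the mitochondrial nuclease that cuts piRNA precursors, was at 4.77 and 5.12 TPM in LT, 1.23 and 1.26 in ST and 1.78 and 2.00 in RT (-1.41 ± 0.37, 0.012), so RT stayed closer to ST. Tdrd7, a Tudor protein of germ granules, was higher in ST, at 3.91 and 4.90 TPM against 0.788 and 1.09 in LT (1.48 ± 0.17, 4.3e-05). These values come from bulk libraries in which stromal markers were also higher in ST, and their part was not tested.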
